A study of Drosophila melanogaster and Drosophila simulans with 122 samples.

Results

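The genes described here encode the subunits of the proteasome in D. melanogaster (D. mel), taken as every gene whose symbol starts with Prosalpha, Prosbeta, Rpn or Rpt followed by a digit. The rule gave 48 of the 17874 genes listed for this species. A total of 16 members carry a symbol that ends in T, T1, T2, R, R1 or R2 and are called testis paralogs, and the other 32 are called general subunits. A general subunit whose symbol is that of a paralog without its suffix is its partner, and 12 general subunits had at least 1 paralog. The files held no symbols, so members were found by their FlyBase gene identifiers in a reference table.

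The proteasome is the protease complex that degrades proteins tagged with ubiquitin. Its barrel-shaped core particle is built from alpha subunits (Prosalpha), which form the gated outer rings, and beta subunits (Prosbeta), some of which carry the protease sites. The regulatory particle that caps the barrel holds ATPases (Rpt), which unfold the substrate and open the gate, and non-ATPase subunits (Rpn), which bind ubiquitin, remove it or form the scaffold. Drosophila carries duplicates of many of these genes that are used in the male germline. One of them, Prosalpha6T, is known to be needed for the late maturation of sperm.

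The study sequenced RNA of whole testes and of single germ-cell cysts from lines that differ at the X-linked microRNA locus mir-983. D. mel WT is the w1118 strain. The replacement line carries the D. simulans copy, dsi-mir-983a, in place of the locus, and D. mel KO lacks both hairpins of the locus, dme-mir-983-1 and -2, after CRISPR-Cas9 deletion in w1118. The cysts were picked by the number and size of their cells as spermatogonia (SG), late primary spermatocytes (pSC) or round spermatids (rST). Elongating spermatids (eST) were picked by the length of the bundle. The cDNA of each cyst was amplified before sequencing, from mated males 2 to 3 days after eclosion. Each testis library pooled 20 to 25 pairs of testes from males 3 to 5 days after eclosion. Of the 122 libraries of the series, 71 came from these 3 lines. D. mel WT had 6 SG, 5 pSC, 5 rST and 5 eST cysts, the replacement line had 5 of each stage, and D. mel KO had 4 SG, 5 pSC, 6 rST and 6 eST cysts. Each line had 3 testis libraries. Neither the number of independent clones per line nor the males that gave each cyst were found in the labels, so p-values measure the spread between these libraries.

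Total counts were 15478484 to 21368301 in testes and 14870386 to 24086166 in cysts. The deleted hairpins reached at most 0.119 and 0.147 FPKM (fragments scaled by gene length and library depth) in any library, so these RNA libraries do not check the deletion. On 42 genes that differed by over 3 on the log2 scale between the lines in testes, 62 of 62 cysts were most like their own line. The most similar cyst had the same stage for 59 of 62 cysts, and the exceptions were D. mel WT rST replicate 5 with D. mel WT eST replicate 3, which were each other's nearest, and replacement pSC replicate 2, which was nearest to replacement rST replicate 1. The summed FPKM of 3 spermatogonial markers (vas, bam and aub) was 59.5 to 567.5 in SG cysts of all lines, against at most 33.6 in pSC cysts. SG cysts also held RNA of genes used as markers of later stages. The sum of 6 spermatocyte markers was 47.5 to 427.3 FPKM in them and 270.2 to 808.0 FPKM in pSC cysts. That of 6 post-meiotic markers was 25.1 to 1339 FPKM in SG, 875.0 to 2590 FPKM in pSC and 1783 to 2877 FPKM in rST cysts. The pSC and rST ranges overlapped, so these genes do not mark post-meiotic cysts alone. Accessory gland markers summed to 185.0 to 798.8 FPKM in D. mel WT SG cysts, 22.8 to 67.3 FPKM in replacement SG cysts and 14.2 to 155.2 FPKM in D. mel KO SG cysts. Markers of somatic cyst cells summed to 5.31 to 36.0 FPKM over all cysts, and those of the muscle sheath to 3.64 to 297.6 FPKM in cysts and 195.6 to 225.4 FPKM in testes.

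The 16 paralogs lay on all the major chromosome arms, with 2 on X, 4 on 2L, 3 on 2R, 2 on 3L and 5 on 3R, and 6 of them lay on the arm of their partner. In the gene annotation, 6 of 16 paralogs had 1 exon in every transcript, against 4 of 32 general subunits and 27.6% of all annotated genes. Prosbeta4R1 (2L, 2653046 to 2653926, plus strand) and Prosbeta4R2 (2L, 2655394 to 2657102, plus strand) were neighbours, 1467 bases apart. Coordinates are those of Release 6 of the genome. Exons overlapped those of another gene for 3 paralogs (Prosalpha1R, Prosbeta4R2 and Rpt3R) and 13 general subunits, Prosbeta2, Prosbeta4, Prosbeta5, Rpt4 and Rpt6 among them, and the counts ignore strand, so their values can be affected by the neighbour. No protein or promoter sequence was analysed here.

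Prosalpha1 and its paralog Prosalpha1R, a core alpha subunit pair, could not be told apart. They lie 1734 bases apart on arm 2R, Prosalpha1 at 7827303 to 7828678 and Prosalpha1R at 7830413 to 7831771, both on the minus strand. Uniquely assigned reads numbered 26 to 515 per library for Prosalpha1 and 0 to 5 for Prosalpha1R. FPKM, which come from another program than the counts, averaged 213 ± 20.7 for Prosalpha1R and 253 ± 24.8 for Prosalpha1 in D. mel WT SG cysts (SD, n = 6). Both genes were left out of all sums and counts below, which rest on 15 paralogs, 11 general subunits with a paralog and 20 without.

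In D. mel WT, the paralogs made up a growing part of the duplicated subunits from SG to rST. Summed over the 11 duplicated subunits, the paralogs took 50.3% ± 9.70 of FPKM in SG cysts (SD, n = 6), 72.6% ± 10.5 in pSC (n = 5), 82.6% ± 3.31 in rST (n = 5) and 80.4% ± 2.68 in eST (n = 5). In D. mel WT testes the share was 73.2% ± 0.579 (n = 3). Single cysts ran from 38.8% to 64.6% in SG, 62.6% to 85.4% in pSC, 78.6% to 86.3% in rST and 76.3% to 83.2% in eST. The SG and rST ranges did not overlap, whereas those of pSC and rST, and of rST and eST, did. These shares are descriptions, and FPKM gives a gene's part of the RNA in a cyst, not the amount of RNA per cell.

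Both sides of the ratio moved. The general subunits with a paralog summed to 2206 ± 415.1 FPKM in SG, 1160 ± 494.1 in pSC, 672.2 ± 150.8 in rST and 542.6 ± 153.0 FPKM in eST cysts of D. mel WT. The paralogs summed to 2250 ± 521.3, 3046 ± 475.9, 3185 ± 296.5 and 2319 ± 806.0 FPKM at the same stages. The 20 general subunits without a paralog summed to 5469 ± 445.5, 4257 ± 705.9, 3167 ± 300.3 and 2645 ± 625.7 FPKM. D. mel WT eST replicate 4 held the lowest sum of the D. mel WT eST cysts in each of the 3 sets.

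The other lines showed the same order of stages. In the replacement line the share was 31.8% ± 17.9 in SG (n = 5), 68.3% ± 19.4 in pSC, 83.0% ± 2.12 in rST, 78.0% ± 4.19 in eST and 73.3% ± 0.307 in testes. In D. mel KO it was 42.7% ± 20.2 in SG (n = 4), 79.0% ± 10.9 in pSC, 84.0% ± 2.98 in rST, 79.7% ± 4.32 in eST and 72.8% ± 1.36 in testes. The widest spread was among SG and pSC cysts. Replacement SG replicate 1 had a share of 8.02% with 567.5 FPKM of spermatogonial, 47.5 FPKM of spermatocyte and 25.1 FPKM of post-meiotic markers, and D. mel KO SG replicate 4 had 17.3% with 345.2, 213.1 and 98.6 FPKM of the same marker sums. At the other end, D. mel WT SG replicate 6 had 64.6% with 59.5, 427.3 and 1339 FPKM. Among pSC cysts, replacement replicates 1 and 3 had shares of 46.6% and 47.8% with 875.0 and 934.4 FPKM of post-meiotic markers, whereas the other 3 replacement pSC cysts had 79.7% to 86.2% with 2010 to 2590 FPKM. The part of cyst age within a stage, or of RNA from other cysts, in these shares was not tested.

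**Figure D1:**
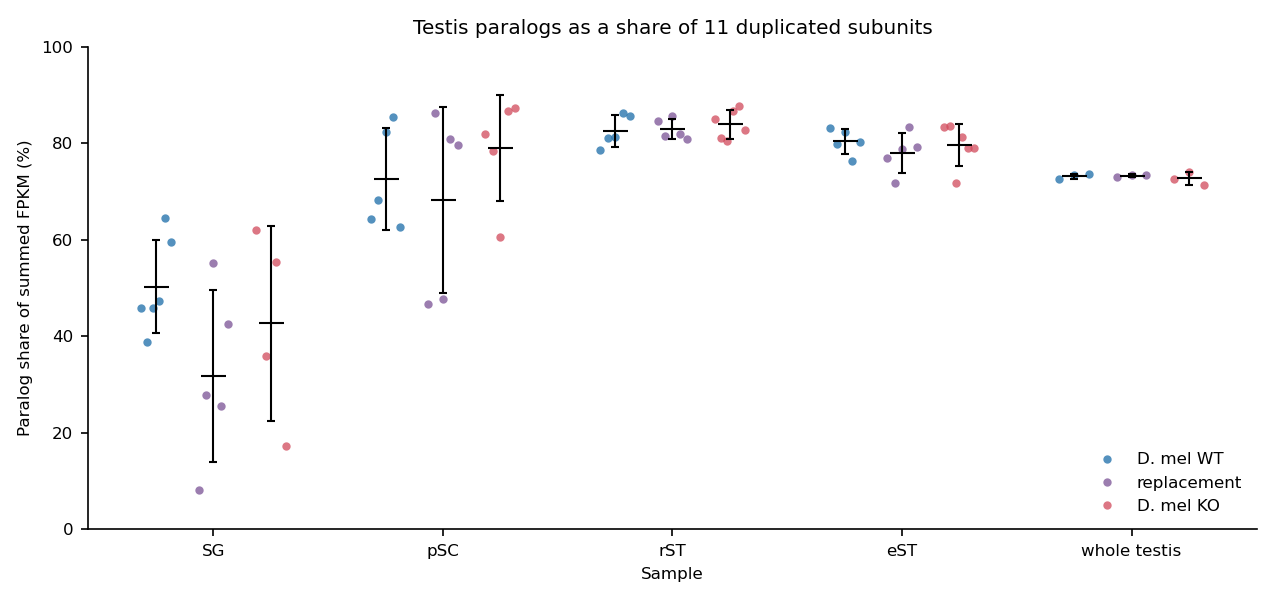
The y axis gives the paralog share of summed FPKM (%) over 11 duplicated subunits, and the x axis the 4 cyst stages and whole testes of D. mel WT, the replacement line and D. mel KO. Points are libraries, and bars are means with SD. All rST cysts of the 3 lines lie above 78%, while SG cysts spread from 8.02% to 64.6%.

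**Figure D2:**
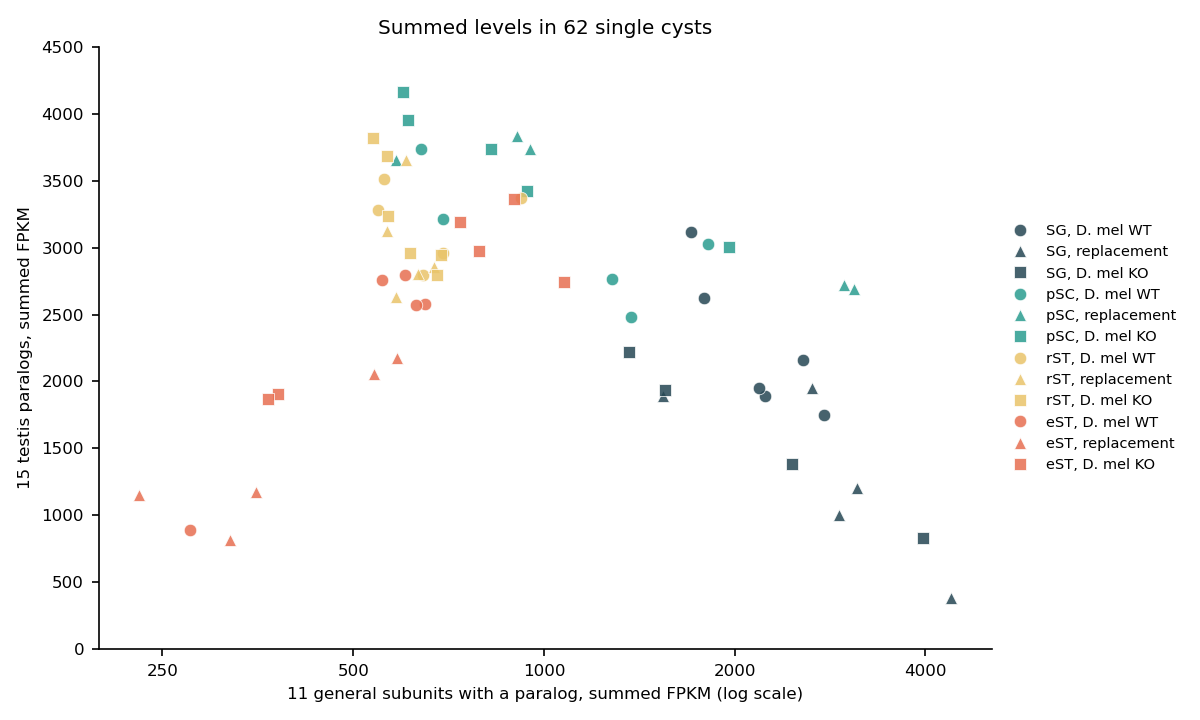
Each point is 1 of the 62 cysts, with the summed FPKM of the 11 general subunits that have a paralog on the x axis (log scale) and that of the 15 paralogs on the y axis. Colours mark stages and shapes mark lines. SG cysts lie at the lower right, pSC cysts spread between them and the rST cysts at the upper left, and some eST cysts are low on both axes.

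Stage by stage, the share differed between the subunits. Among core alpha subunits of D. mel WT, the paralogs Prosalpha4T1 and Prosalpha4T2 together held 67.6% ± 12.1 of their set's FPKM in SG and 96.6% ± 2.00 in rST, and Prosalpha6T held 46.7% ± 12.8 in SG and 94.0% ± 5.94 in rST. Prosalpha3T stayed the minor copy, with 12.2% ± 3.37 in SG, 20.7% ± 14.4 in rST and 5.86% ± 8.56 in eST. Among the beta subunits, the paralogs of Prosbeta4, Prosbeta5 and the protease subunit Prosbeta2 held 63.6%, 59.9% and 54.9% in SG and 96.6%, 96.5% and 89.6% in rST. In the regulatory particle, the paralogs of Rpn12, Rpt3 and Rpt4 held 64.5%, 62.9% and 66.9% in SG and 96.9%, 96.5% and 93.0% in rST. Rpt6R held 44.6% in SG and 72.8% in rST, and Rpn13R, the paralog of the ubiquitin receptor Rpn13, held 17.5% in SG and 28.9% in rST. Thus Prosalpha3 and Rpn13 were the partners that stayed above their paralogs in mean FPKM at every stage.

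**Figure D3:**
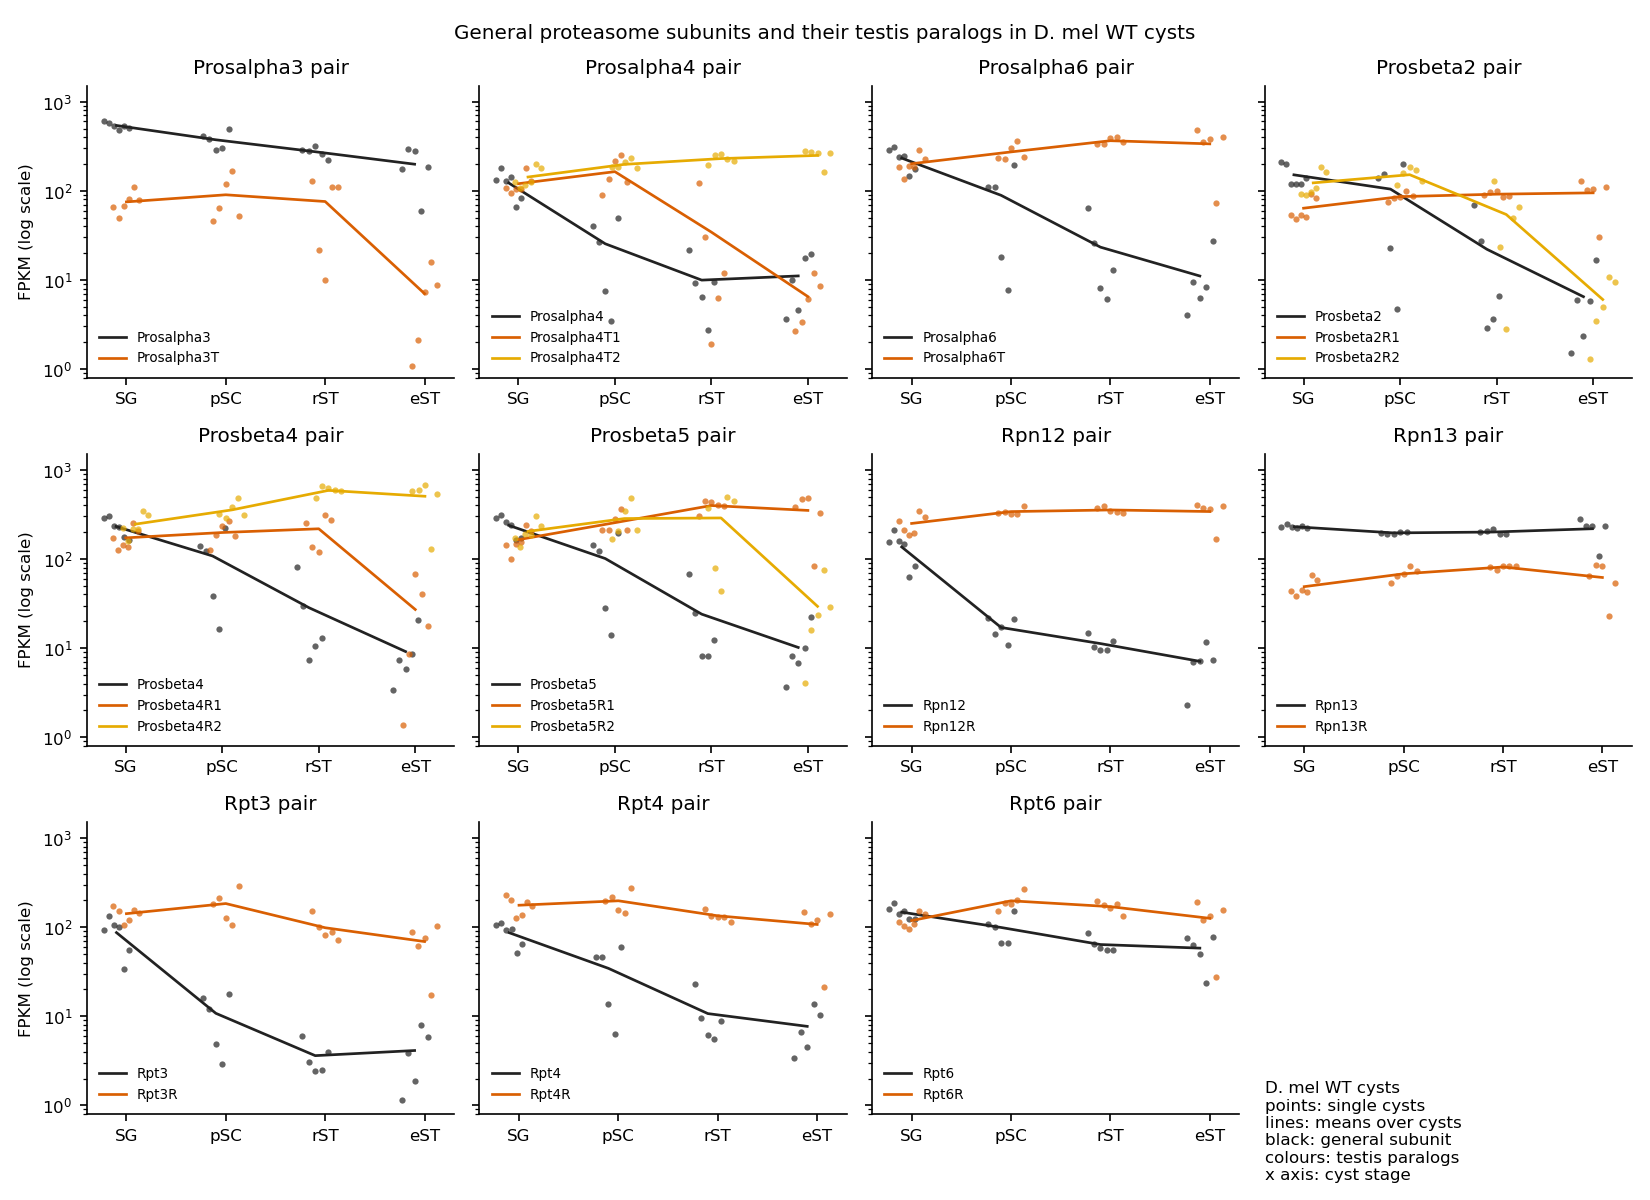
FPKM on a log scale (y axis) at the 4 cyst stages (x axis) for 11 general subunits (black) and their 15 paralogs (colours) in D. mel WT. Points are single cysts and lines join the means. In the Rpt3, Rpn12 and Prosalpha4 panels the mean of the general subunit is already below that of its highest paralog at SG and lies further below it at rST. In the Prosalpha3 and Rpn13 panels the general subunit stays on top.

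The comparison of rST with SG was tested on read counts in each line by the edgeR quasi-likelihood test, adjusted by the Benjamini-Hochberg method over all genes. It was chosen after the data were seen, since pSC cysts spread between the SG and rST levels. A gene was called at an adjusted p under 0.05 and an absolute log2 fold change above 1. In D. mel WT, 8 of the 11 general subunits with a paralog fell and none rose, with a median log2 fold change of -2.58, against 5 of 20 general subunits without a paralog that fell, with a median of -0.36. Of the 15 paralogs, 8 rose and none fell, with a median of 1.11. In mean FPKM, the called Prosbeta5R1 and Prosbeta4R2 rose 2.42- and 2.39-fold. The other called paralogs rose from 1.42-fold (Rpn12R) to 1.81-fold (Prosalpha6T) in FPKM, under the 2-fold of the threshold. The count of 8 thus does not hold in FPKM, and counts scaled by depth alone were not tested. Of all genes tested, 30.3% fell and 21.4% rose, with a median of -0.16, so the count of subunits without a paralog was not above that of all genes. With DESeq2 or its size factors 2 of the 20 subunits without a paralog fell, while 8 of 11 with one fell as before. With TMM scaling, no call of a member in this comparison was lost when any 1 of the 21 D. mel WT cysts was left out.

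The general ATPase Rpt3 fell most. It had 6.08, 3.06, 2.46, 2.49 and 4.005 FPKM in D. mel WT rST cysts, against a lowest, median and highest value of 33.7, 97.4 and 133 FPKM in SG cysts. All rST cysts were below all SG cysts, and the mean was 24.1-fold lower in rST. By counts, the log2 fold change was -4.01 (SE 0.52, adjusted p = 2.65e-06 by edgeR). Its paralog Rpt3R had 151, 101, 80.8, 88.8 and 72.1 FPKM in rST, against 107, 148 and 171 FPKM in SG. The Rpt3R ranges overlapped, with a log2 fold change of 0.01 (SE 0.30, adjusted p = 0.984 by edgeR). In FPKM, D. mel WT rST cysts lay wholly below SG cysts for 11 of 11 general subunits with a paralog. That was so for 19 of 20 without one, so a lack of overlap did not set the called subunits apart. Among the testis paralogs, the rST and SG ranges overlapped for 11, while rST cysts lay wholly above SG cysts for 4 and wholly below for 0. Most paralogs were thus not separated between these stages in FPKM. The share over all genes was not computed, so these counts cannot be set against it.

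Rpn12, a non-ATPase subunit of the regulatory particle, had 14.7, 10.3, 9.61, 9.52 and 12.0 FPKM in rST cysts of D. mel WT, against a lowest, median and highest value of 62.3, 152 and 209 FPKM in SG. Again the groups did not overlap, and its log2 fold change was -2.99 (SE 0.36, adjusted p = 1.23e-06 by edgeR). Its paralog Rpn12R had 369, 398, 342, 337 and 329 FPKM in rST, against 186, 240 and 346 FPKM in SG. Rpn12R rose by 1.12 on the log2 scale (adjusted p = 0.000173 by edgeR), although the FPKM of the lowest rST cysts lay within the SG range.

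In the alpha ring, Prosalpha4 had 21.9, 9.23, 6.43, 2.75 and 9.45 FPKM in rST cysts of D. mel WT, against 65.4, 131 and 181 FPKM (lowest, median, highest) in SG. Prosalpha6 had 63.5, 26.1, 8.04, 6.06 and 12.9 FPKM in rST, against 146, 241 and 311 FPKM in SG. Both were lower in every rST cyst, by -3.13 (SE 0.59, adjusted p = 0.000117) and -2.86 (SE 0.65, adjusted p = 0.000743) on the log2 scale in edgeR. Their paralogs rose. Prosalpha4T2 had 194, 252, 260, 228 and 215 FPKM in rST, against 107, 126 and 198 FPKM in SG, and Prosalpha6T had 337, 336, 389, 405 and 357 FPKM in rST, against 137, 187 and 288 FPKM in SG. Their log2 fold changes were 1.31 (SE 0.23) and 1.47 (SE 0.33), with adjusted p of 6.01e-05 and 0.00062 in edgeR.

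In the beta rings, the protease subunit Prosbeta5 had 67.1, 24.6, 8.24, 8.13 and 12.2 FPKM in rST cysts of D. mel WT, against 164, 249 and 309 FPKM (lowest, median, highest) in SG. Its paralog Prosbeta5R1 had 307, 443, 442, 402 and 397 FPKM in rST, against 101, 151 and 238 FPKM in SG. Neither gene's groups overlapped, and the log2 fold changes were -2.86 (SE 0.59, adjusted p = 0.000288) and 1.88 (SE 0.33, adjusted p = 6.12e-05) in edgeR. Prosbeta4R2 overlaps the gene Or23a. It had 482, 658, 630, 596 and 579 FPKM in rST, against 159, 222 and 348 FPKM in SG, and rose by 1.83 (SE 0.31, adjusted p = 4.03e-05 by edgeR).

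The remaining general subunits with a paralog that fell in D. mel WT rST were Prosbeta4 (-2.58), Rpt4 (-2.53) and Prosbeta2 (-2.35, adjusted p = 0.0129 by edgeR). The 3 that were not called had log2 fold changes of -0.60 (Rpt6), -0.38 (Prosalpha3) and 0.38 (Rpn13). Rpn13R, Prosbeta2R1 and Rpt6R rose by 1.33, 1.13 and 1.11. The paralogs that were not called ran from 1.03 (Prosbeta5R2) and 0.90 (Prosbeta4R1) over 0.52 (Prosalpha3T), 0.20 (Rpt4R) and 0.01 (Rpt3R) to -0.71 (Prosbeta2R2) and -1.38 (Prosalpha4T1, adjusted p = 0.0664 by edgeR). General subunits without a paralog that fell were the scaffold subunits Rpn2 (-1.80) and Rpn1 (-1.62), then Rpn8 (-1.19), Rpn3 (-1.17) and the ATPase Rpt2 (-1.11). The calls of Rpn8, Rpn3 and Rpt2 were lost with DESeq2 and with its size factors, where their log2 fold changes were under the threshold.

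The other lines gave the same direction for the sets. In the replacement line, 8 of 11 general subunits with a paralog fell with a median of -4.03, 6 of 20 without one fell with a median of -0.50, and 10 of 15 paralogs rose and 1 fell with a median of 2.21 (all genes 36.0% lower, 26.4% higher, median -0.34). In D. mel KO, the counts were 8 of 11 lower with a median of -3.91, 5 of 20 lower with a median of -0.30, and 10 of 15 paralogs higher and 1 lower with a median of 1.88 (all genes 36.4% lower, 22.7% higher, median -0.31). The paralog that fell was Prosalpha4T1 in both. Its log2 fold change was -1.72 in the replacement line (adjusted p = 0.0466 by edgeR), lost in 16 of 20 refits that left out 1 cyst and with DESeq2 (adjusted p = 0.142), and -2.20 in D. mel KO (adjusted p = 0.00825), lost in 0 of 21. Under DESeq2's size factors all log2 fold changes moved up, by a median of 0.24 in D. mel WT, 0.60 in the replacement line and 0.26 in D. mel KO. The medians of the general subunits without a paralog were then -0.12, 0.10 and -0.04 in the 3 lines, so their direction flipped in the replacement line, where 3 of 20 then rose and 3 fell in place of 0 and 6, while those of subunits with a paralog were -2.41, -3.45 and -3.65 and those of the paralogs 1.35, 2.84 and 2.16. Differences between the lines in this step were called for 0 of 46 members at an adjusted p under 0.05 by edgeR (D. mel WT less D. mel KO, replacement less D. mel KO and D. mel WT less replacement), with 0, 0 and 5 at an unadjusted p under 0.05 and 0 by DESeq2, against 0.359%, 0.637% and 1.48% of all genes.

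**Figure D4:**
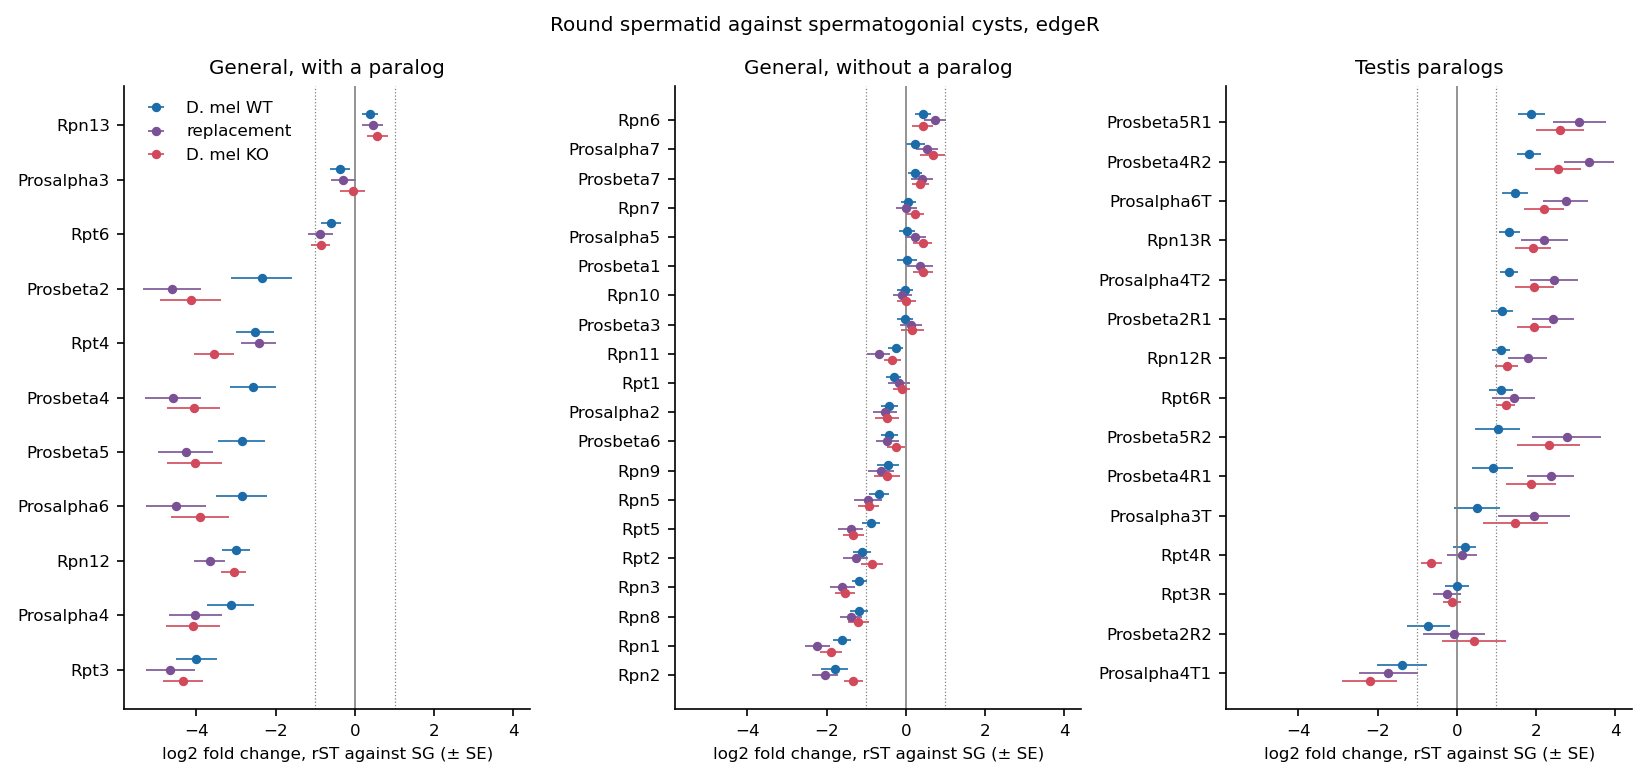
The x axis gives the log2 fold change (edgeR, ± SE) of rST against SG for 46 members (rows), in panels for general subunits with a paralog, general subunits without one and testis paralogs. Colours mark D. mel WT, replacement and D. mel KO, and dotted lines mark a log2 fold change of 1 in either direction. In D. mel WT 8 of 11 rows fell in the first panel, 5 of 20 in the second, and 8 of 15 rose in the third.

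The first step, pSC against SG, held the fall of 2 general ATPases in D. mel WT, together with Rpn12 and Prosalpha4. The members that fell were 4 of 31 general subunits, a share not above the 16.0% of all genes that fell. They were Rpt3 (-2.99, SE 0.49), Rpn12 (-2.91, SE 0.35), Prosalpha4 (-2.30, SE 0.57) and Rpt4 (-1.34, SE 0.46), with adjusted p of 0.000113, 4.45e-06, 0.00455 and 0.0351 by edgeR. No paralog was called (0 by DESeq2, against 4.75% of all genes higher), and Rpt6R had the only adjusted p under 0.05 (log2 fold change 0.84, 0.0444 by edgeR). Rpn12 had 21.8, 14.3, 17.2, 10.8 and 21.2 FPKM in pSC cysts of D. mel WT, all below its lowest SG cyst. Prosbeta5 had 142, 124, 28.2, 14.1 and 198 FPKM in the same cysts, so 1 pSC cyst was within its SG range and the other 4 were below it. The cysts with little Prosbeta5 had the most Prosbeta5R1, which had 209, 212, 281, 363 and 214 FPKM. Rpt3R went the other way, with 183, 214, 127, 106 and 291 FPKM. The Rpt4 call was lost in 6 of 21 refits, those without SG replicate 1, 2, 4 or 5 or pSC replicate 3 or 4, and the other 3 in none.

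More members passed the test at this step in the other lines, as did more of all genes. In the replacement line 7 of 31 general subunits fell (Rpt3 -3.11, Rpn12 -2.91, Prosalpha4 -1.91, Rpn2 -1.83, Rpn1 -1.74, Rpt4 -1.17 and Rpt2 -1.06, against 22.0% of all genes) and 11 of 15 paralogs rose (Prosbeta5R2 2.71 and Prosalpha3T 2.70 the most, against 17.8%). In D. mel KO 8 of 31 general subunits fell (Rpt3 -3.74 and Prosalpha4 -3.00 the most, against 25.4%) and 12 of 15 paralogs rose (Prosalpha4T1 2.5 and Prosbeta5R2 2.5 the most, against 19.7%). The shares of general subunits that fell were close to those of all genes in both lines. The count of paralogs in the replacement line was 4 without pSC replicate 2, the cyst most like an rST cyst, and 7 without SG replicate 5. When only the SG and pSC cysts of the replacement line were fitted, 1 paralog and 4 general subunits were called. The count of general subunits in D. mel KO was 4 without SG replicate 4, the cyst with the low paralog share. With the replicate number as a block in the fit, calls of D. mel KO paralogs were lost, that of Prosbeta5R2 among them (adjusted p = 0.052 by edgeR). The difference between the lines in this step was called for 0 of 46 members in each of the 3 pairs by edgeR, with 1 (D. mel WT less D. mel KO), 1 (replacement less D. mel KO) and 5 (D. mel WT less replacement) at an unadjusted p under 0.05 and 0, 0 and 1 by DESeq2, against 0.505%, 0.190% and 1.13% of all genes. For D. mel WT less replacement the count was 1 without D. mel WT pSC replicate 4 or 5, D. mel WT eST replicate 1 or replacement pSC replicate 3.

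From pSC to rST in D. mel WT, Prosbeta5 (-1.59), Rpn2 (-1.43) and Rpn8 (-1.02) fell among the general subunits and Prosalpha4T1 (-2.0) fell among the paralogs, against 12.8% of all genes. The core paralogs Prosbeta4R2 (1.17) and Prosbeta5R1 (1.09) rose, against 5.87%. Leaving out 1 cyst at a time, Rpn2 and Prosbeta4R2 kept their calls in all 21 refits, whereas Prosbeta5 lost its call in 14, Prosalpha4T1 in 7, Prosbeta5R1 in 6 and Rpn8 in 4. With all 3 lines in 1 fit, none of the 3 paralogs was called (adjusted p = 0.117 for Prosbeta4R2, 0.164 for Prosbeta5R1 and 0.0818 for Prosalpha4T1 in edgeR). The count of general subunits was 1 without pSC replicate 2 or rST replicate 3, 4 or 5, 5 without pSC replicate 3, and 7 without pSC replicate 4 or rST replicate 1. That of paralogs was 1 without pSC replicate 2 or rST replicate 2, 3 or 4, and 5 without rST replicate 1, the D. mel WT rST cyst with the most spermatocyte RNA (365.8 FPKM over 6 markers).

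The calls at this step in the other lines were mostly of general subunits with a paralog. In the replacement line Prosbeta2 (-4.00), Prosbeta4 (-3.61), Prosalpha6 (-3.55), Prosbeta5 (-3.34), Prosalpha4 (-2.12), Rpt4 (-1.26), Rpn8 (-1.17) and Rpt5 (-1.07) fell, and in D. mel KO Prosbeta2 (-2.77), Prosbeta4 (-2.49), Prosbeta5 (-2.24) and Rpt4 (-1.41) fell, against 18.5% and 13.5% of all genes. Prosalpha4T1 was the single paralog called, at -3.90 in the replacement line and -4.70 in D. mel KO, and no member rose in either (0.616% and 0.325% of all genes rose). With DESeq2 5 general subunits were called in the replacement line, and with its size factors 4. Without replacement pSC replicate 1 or 3, the 2 cysts with the low paralog share, 5 general subunits were called in that line. The paralog count there was 3 without SG replicate 1 and 2 without pSC replicate 2 or rST replicate 3. Without D. mel KO pSC replicate 3, whose general sum of 1960 FPKM was the highest of its group, the D. mel KO count of general subunits was 0, and without rST replicate 5 that of paralogs was 2. No difference between lines was called in this step (0 of 46 members and 0% of all genes for each pair in edgeR, 0 by DESeq2), with 2, 0 and 5 members at an unadjusted p under 0.05 for D. mel WT less D. mel KO, replacement less D. mel KO and D. mel WT less replacement.

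The last step, eST against rST, separated the paralogs of D. mel WT. Prosalpha3T (-2.67, SE 0.66), Prosbeta5R2 (-2.53, SE 0.64), Prosbeta4R1 (-2.38, SE 0.56) and Prosbeta2R2 (-2.36, SE 0.59) fell, with adjusted p of 0.00506, 0.00607, 0.00398 and 0.00588 by edgeR, against 10.5% of all genes. Prosbeta4R1 had 1.38, 8.57, 67.7, 40.1 and 17.9 FPKM in eST cysts, against 251, 138, 119, 311 and 273 FPKM in rST cysts, with no overlap. Prosbeta5R2 had 4.08, 16.1, 23.4, 74.5 and 28.9 FPKM in eST, against 370, 78.5, 44.1, 499 and 452 FPKM in rST, with overlap. For each of the 3 duplicated beta subunits with a pair of paralogs, the other paralog (Prosbeta2R1, Prosbeta4R2 and Prosbeta5R1) was not called. Prosbeta4R2 had 572, 602, 682, 131 and 543 FPKM in eST, against 482, 658, 630, 596 and 579 FPKM in rST. No call of these 4 paralogs was lost in 21 refits.

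Rpn2 was the general subunit that rose in eST of D. mel WT (1.33, SE 0.35, adjusted p = 0.00713 by edgeR, against 12.0% of all genes). It had 33.6, 26.8, 10.7, 11.9 and 28.1 FPKM in eST, against 20.1, 11.5, 12.0, 14.2 and 15.1 FPKM in rST. The groups overlapped, and the count of general subunits was 2 without eST replicate 2 or 3. Rpn2 was also called in the replacement line (1.15) and in D. mel KO (1.05). When only the rST and eST cysts of a line were fitted, its call was lost in each line, with 0.99 in D. mel WT (adjusted p = 0.0752), 0.80 in the replacement line and 0.93 in D. mel KO.

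In the replacement line 2 general subunits rose (Rpn2 and Rpn8, against 10.2% of all genes) and 3 fell (Prosalpha7 -1.19, Prosalpha3 -1.06 and Prosbeta3 -1.06, against 4.33%), while Prosalpha4T1 rose by 2.47 and Prosbeta4R1 fell by 1.77 on the log2 scale, calls lost in 7 and 12 of 20 refits. The Rpn2 and Rpn8 calls of the replacement line were lost with DESeq2 and its size factors, under which 0 general subunits without a paralog rose and 3 fell. Fitting only its rST and eST cysts gave 8 general subunits and 7 paralogs. In D. mel KO only Rpn2 rose among general subunits (11.3% of all genes rose and 7.84% fell), and Prosalpha4T1 rose by 2.72 and Prosbeta4R1 fell by 1.70 on the log2 scale. Most of these counts moved with single cysts. General subunits numbered 2 or 3 in the replacement line without rST replicate 2 or 5 or eST replicate 2 or 4, and paralogs 0 to 4 without SG replicate 1, 2 or 5, pSC replicate 4 or 5, or any 1 rST or eST replicate. In D. mel KO, general subunits numbered 0 without eST replicate 2 or 3 and 2 to 7 without SG replicate 4, pSC replicate 3, 4 or 5, rST replicate 3 or eST replicate 4. Paralogs there numbered 1 without rST replicate 4 or 5 or eST replicate 2 or 6.

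Prosalpha4T1, a core alpha paralog on 3R (20748184 to 20749074, minus strand), was the member whose last step differed between D. mel WT and both other lines. In eST it had 2.69, 3.36, 6.06, 11.8 and 8.53 FPKM in D. mel WT, 37.8, 21.4, 26.6, 9.92 and 51.4 FPKM in the replacement line, and a lowest, median and highest value of 2.91, 43.9 and 132 FPKM in D. mel KO. In rST it had 121, 30.3, 1.93, 6.24 and 12.1 FPKM in D. mel WT, 8.71, 0.904, 12.2, 8.61 and 1.96 FPKM in the replacement line, and 2.35, 3.82 and 18.9 FPKM in D. mel KO. In eST, 4 of 5 replacement cysts and 5 of 6 D. mel KO cysts were above all D. mel WT cysts, while in rST 2 D. mel WT cysts were above all cysts of the other lines. The step in D. mel WT less that in D. mel KO was -4.49 (adjusted p = 0.00923 by edgeR, against 3.31% of all genes at an adjusted p under 0.05), and D. mel WT less replacement was -4.18 (adjusted p = 0.032, against 1.77%). Both calls were lost when only the groups compared were fitted (adjusted p = 0.0624 and 0.0758 by edgeR), and the second also with DESeq2's size factors (adjusted p = 0.05).

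The sum of all 6 spermatocyte markers ran from 47.2 to 365.8 FPKM in D. mel WT rST, 37.0 to 105.8 FPKM in replacement rST and 31.1 to 121.1 FPKM in D. mel KO rST. In eST the sum ran from 16.5 to 53.6 FPKM in D. mel WT, 29.4 to 167.4 FPKM in the replacement line and 25.9 to 367.1 FPKM in D. mel KO. Each of the 6 was above 0 in every eST cyst. The ranges of the lines overlapped at both stages. The part of spermatocyte RNA in the Prosalpha4T1 difference was not tested. D. mel WT less D. mel KO lost its call without D. mel WT rST replicate 1, and with D. mel WT eST replicate 5, D. mel KO rST replicate 3 or 5 or D. mel KO eST replicate 4 left out 2 or 3 members were called. D. mel WT less replacement lost it in 9 of 62 refits. Rpn13, the ubiquitin receptor, differed by 1.22 for D. mel WT less replacement (adjusted p = 0.0274 by edgeR), lost in 7 of 62 and when only the groups compared were fitted (adjusted p = 0.0795). It had 283, 232, 232, 109 and 237 FPKM in D. mel WT eST and 94.3, 82.2, 132, 87.0 and 156 FPKM in replacement eST, where 4 of 5 D. mel WT cysts were above all replacement cysts. For that pair the count was 0 without D. mel WT rST replicate 1, D. mel WT eST replicate 1 or 2, replacement rST replicate 2 or 5 or replacement eST replicate 3 or 5, 1 without D. mel WT eST replicate 3 or replacement rST replicate 4, and 4 without D. mel WT eST replicate 4. Replacement less D. mel KO gave 0 of 46 by edgeR, 4 at an unadjusted p under 0.05 and 0 by DESeq2, against 0.00732% of all genes.

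In whole testes, general subunits and paralogs were both present in every library, and a lower level there can reflect fewer cells of a stage or less RNA per cell, which cannot be told apart. Over the 9 libraries, the members with the highest mean FPKM were Prosbeta4R2 (165.2), Rpn6 (159.9), Prosbeta1 (143.6), Rpn12R (142.1) and Rpn13 (141.7), and the lowest were Rpt3 (7.40), Rpn12 (12.96) and Rpt4 (17.6), whose paralogs Rpt3R, Rpn12R and Rpt4R averaged 58.0, 142.1 and 53.5 FPKM.

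The comparisons of the lines set the genotypes at mir-983 against each other. With the number of clones per line unknown, an effect of the locus cannot be told apart from other differences between the lines. In C, D. mel WT was set against D. mel KO. In B, replacement was set over D. mel KO, and in C-B, D. mel WT over replacement, so the comparisons share libraries. Accessory gland markers summed to 309.6 FPKM in D. mel KO testis replicate 2, against 6.25 to 11.8 FPKM in the other 8 testis libraries, and their part in these results was not tested. In testes 0 of 46 members were called in each by edgeR, against 5.17%, 6.18% and 7.68% of all genes, and 0 by DESeq2. At an unadjusted p under 0.05 there were 13, 19 and 17 members, and at an adjusted p under 0.05 without the fold threshold 8, 6 and 11. Log2 fold changes over the members ran from -0.72 to 0.64 in C, -0.52 to 0.26 in B and -0.34 to 0.53 in C-B.

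The ATPase paralog Rpt4R (3L, 11941912 to 11943485, plus strand) had the lowest adjusted p of the members in testes in C and C-B. It had 70.6, 69.9 and 68.9 FPKM in D. mel WT testes, 48.9, 44.9 and 44.2 FPKM in replacement testes, and 46.4, 42.8 and 45.2 FPKM in D. mel KO testes. D. mel WT was above both other lines without overlap, and the replacement and D. mel KO ranges overlapped. The log2 fold change was 0.64 in C (SE 0.05, adjusted p = 2.28e-06) and 0.53 in C-B (SE 0.05, adjusted p = 6.13e-06), both under the fold threshold, and 0.11 in B (adjusted p = 0.177) in edgeR.

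In rST cysts the same gene had 162, 135, 130, 131 and 114 FPKM in D. mel WT, 74.1, 78.6, 106, 74.8 and 106 FPKM in the replacement line, and a lowest, median and highest value of 51.3, 58.2 and 70.8 FPKM in D. mel KO. The 3 lines did not overlap. Rpt4R was the member called in C at this stage, where it was higher by 1.02 (SE 0.13, adjusted p = 6.32e-05 by edgeR, against 5.69% of all genes called). The call sat at the fold threshold. It was lost without D. mel KO rST replicate 5, with DESeq2 and with its size factors, and without D. mel KO rST replicate 3 the count was 3. In B the log2 fold change was 0.67 (SE 0.13, adjusted p = 0.00298), and in C-B 0.35 (SE 0.13, adjusted p = 0.0656), in edgeR.

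Its general partner, Rpt4 (X, 6289470 to 6291245, minus strand), which overlaps wuho, was called in B at rST. It had 13.2, 13.7, 15.1, 12.0 and 13.5 FPKM in replacement rST cysts, a lowest, median and highest value of 4.58, 5.37 and 8.96 FPKM in D. mel KO, and 23.3, 9.65, 6.21, 5.61 and 8.93 FPKM in D. mel WT. Replacement cysts were above all D. mel KO cysts, with a log2 fold change of 1.27 (SE 0.25, adjusted p = 0.00386 by edgeR, against 4.37% of all genes called), which held in all 16 refits. At eST Rpt4 had 3.42, 6.65, 4.51, 13.6 and 10.4 FPKM in D. mel WT, against 22.9, 21.1, 20.6, 18.7 and 22.3 FPKM in the replacement line. It was lower in D. mel WT in C-B (-1.40, SE 0.40, adjusted p = 0.0473 by edgeR), a call lost in 12 of 16 refits, without the filter on low counts (adjusted p = 0.0529) and with only these groups fitted (adjusted p = 0.0581). In testes Rpt4 had 16.6, 15.6 and 15.7 FPKM in D. mel WT, 22.1, 19.2 and 20.1 FPKM in the replacement line and 16.4, 15.7 and 17.4 FPKM in D. mel KO, so replacement testes were the highest. The log2 fold change in testes was 0.26 in B (adjusted p = 0.0232) and -0.34 in C-B (adjusted p = 0.00359) in edgeR.

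The other calls between lines in cysts were of Prosalpha4T1 at eST, -2.39 in C (SE 0.56, adjusted p = 0.0246, against 3.24% of all genes) and -1.98 in C-B (SE 0.57, adjusted p = 0.0478, against 5.11%) in edgeR. The C call was lost when only D. mel WT and D. mel KO were fitted (adjusted p = 0.0569). With the replicate number as a block, the C and C-B calls were both lost (adjusted p = 0.106 and 0.116 by edgeR). In the eST cysts of this C comparison the 6 spermatocyte markers summed to 16.5 to 53.6 FPKM in D. mel WT and 25.9 to 367.1 FPKM in D. mel KO. These ranges overlapped, and the part of spermatocyte RNA in the call was not tested. In testes Prosalpha4T1 had a C of 0.05 and did not pass the test (adjusted p = 0.774 by edgeR). For C at eST, 0 members were called without D. mel WT eST replicate 1 or 2 or D. mel KO eST replicate 1, 3 or 5, and 2 or 3 without D. mel WT eST replicate 5 or D. mel KO eST replicate 4. The C-B count at eST lay between 0 and 6 and differed from 2 with any 1 of the 16 eST cysts left out.

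**Figure D5:**
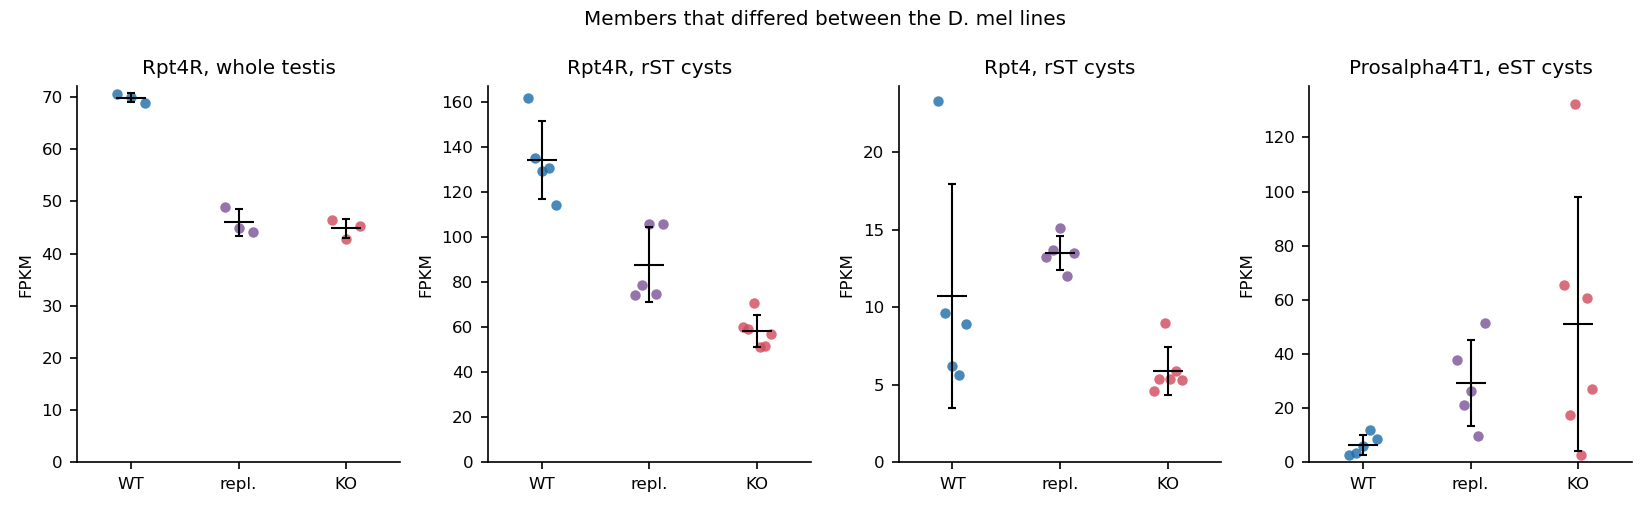
FPKM (y axes, starting at 0) of Rpt4R in whole testes and rST cysts, Rpt4 in rST cysts and Prosalpha4T1 in eST cysts, for D. mel WT, the replacement line (repl.) and D. mel KO. Points are libraries, and bars are means with SD. Rpt4R is highest in D. mel WT in both sample types, with 68.9 to 70.6 FPKM in testes, and the 5 replacement rST cysts hold 12.0 to 15.1 FPKM of Rpt4.

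At SG 0 of 46 members were called in C, B and C-B by edgeR, against 0.129%, 0.364% and 1.90% of all genes, with 0, 1 and 6 members at an unadjusted p under 0.05 and 0, 1 and 0 called by DESeq2. At pSC 0 were called as well, against 1.80%, 1.73% and 3.95%, with 4, 2 and 13 at an unadjusted p under 0.05 and 1, 0 and 0 by DESeq2. At pSC 1 member was called in C without D. mel WT replicate 4 or 5 or replacement replicate 3, in B without replacement replicate 2, and in C-B without replacement replicate 3. In C-B at rST 0 were called (17 at an unadjusted p under 0.05, 0 by DESeq2, 11.4% of all genes), with 1 without D. mel WT rST replicate 1 or 3. In B at eST 0 were called (4 at an unadjusted p under 0.05, 0 by DESeq2, 1.61% of all genes). The spread between cysts of a stage was wide, with a biological coefficient of variation of 71.1% (SG), 55.8% (pSC), 41.0% (rST) and 59.8% (eST), against 9.07% in testes.

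Counts under TMM scaling and FPKM gave different sizes of change. Rpn13, whose exons overlap no other gene, had a mean of 200.8 FPKM in rST and 230.5 FPKM in SG cysts of D. mel WT. Its log2 fold change by TMM-scaled counts was nevertheless positive. This shift was not particular to Rpn13. Rpt3R had means of 98.6 FPKM in rST and 141.9 FPKM in SG, with a log2 fold change by counts just above 0. Rpn12R rose 1.42-fold in mean FPKM but by more than 1 on the log2 scale by counts. Prosbeta4R2, which overlaps Or23a, had 54.6, 48.6 and 43.8 CPM (counts scaled by depth) in D. mel WT testes, 56.4, 51.6 and 51.8 in replacement testes, and 77.3, 88.7 and 74.98 in D. mel KO testes, with log2 fold changes of -0.72 in C (adjusted p = 5.31e-05) and -0.52 in B (adjusted p = 0.000591) by edgeR. In FPKM it had 134, 167 and 160 in D. mel WT, 168, 161 and 150 in replacement and 191, 191 and 166 in D. mel KO testes, a log2 ratio of -0.25 in C.

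Of a list of 23 partners of the proteasome (ubiquitin genes, adaptors, ligase subunits and regulators), 22 were found and 21 tested. In D. mel WT, 3 rose in rST against SG, namely ntc (1.70), an F-box protein that binds the proteasome regulator PI31, klhl10 (1.66), a ligase adaptor of the germline, and PI31 itself (1.27). The 4 that fell were the ubiquitin and ribosomal protein fusion genes RpS27A (-3.63) and RpL40 (-3.43), the ligase subunit Roc1a (-2.91) and Sem1 (-1.53), a small subunit of the regulatory particle. Of all genes, 21.4% rose and 30.3% fell. By steps, 1 rose and 4 fell in pSC against SG (Ubi-p63E, a polyubiquitin gene, 1.17, and RpS27A -2.67 and RpL40 -2.55 the most), 1 rose in rST against pSC (ntc, 1.05), and 6 rose and 1 fell in eST against rST (Cul3 1.86, Ubi-p63E 1.59 the most, and cnc, an Nrf-family transcription factor, -1.65), against 4.75% and 16.0%, 5.87% and 12.8%, and 12.0% and 10.5% of all genes higher and lower in these steps.

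In mean FPKM over D. mel WT cysts, 11 of 11 general subunits with a paralog and 19 of 20 without one were highest at SG, and Rpn6 was highest at eST. Of the 15 paralogs, 6 were highest at pSC, 7 at rST and 2 at eST. Of 11817 genes with a mean of at least 1 FPKM at some stage, 45.2% had their maximum at SG, 25.4% at pSC and 14.4% at rST, and the rest at eST.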

How the data were processed

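The authors trimmed reads with Trimmomatic 0.36, mapped them with HISAT2 2.2.0, and deposited raw read counts per gene from HTSeq 0.6.0, which ignored strand, and FPKM from StringTie 2.1.4. The two-sided quasi-likelihood test of edgeR 4.0.16 (limma 3.58.1, R 4.3.3) was run with TMM scaling on genes whose mean normalized count passed 5 in any group. Fits held the 4 stages of 1 line, the 3 lines at 1 stage or in testes, or all cysts for differences between steps. Calls needed an adjusted p (Benjamini-Hochberg, all genes) under 0.05 and an absolute log2 fold change above 1, and differences between steps only that p threshold. FPKM levels, sums and shares are descriptions. DESeq2 1.42.0 was an alternative. Named are all paralogs and partners, the 3 general subunits that changed most per step, members called between lines and the partners that changed most. The members and lists were chosen with earlier results of these data known. The marker nos and the partner Ufd1-like, which matched no symbol, were not analysed here, nor were sequences. The comparison of rST with SG was added after the data were seen.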

Additional observations from a re-analysis of the deposited data

Results flagged for a closer look

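Among 48 sums and shares per group looked at for a library far from its group, 3 had one, where chance gives about 1 in 20. D. mel WT eST replicate 4 summed to 276.1 FPKM over the general subunits with a paralog (group median 602.5) and to 888.9 FPKM over the paralogs (median 2578). D. mel KO pSC replicate 3 summed to 1960 FPKM over the general subunits with a paralog (median 823.6).

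The step from rST to eST differed between lines by the edgeR interaction test for Prosalpha4T1, by -4.49 for D. mel WT less D. mel KO (adjusted p = 0.00923) and by -4.18 for D. mel WT less replacement (adjusted p = 0.032), and for Rpn13, by 1.22 for D. mel WT less replacement (adjusted p = 0.0274). All 3 calls were lost when only the groups compared were fitted (adjusted p = 0.0624, 0.0758 and 0.0795). The part of spermatocyte RNA in these differences was not tested.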

How the results depend on the processing

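No call was reversed under the alternatives run, but the median log2 fold change of general subunits without a paralog in replacement rST against SG was 0.10 under DESeq2's size factors (-0.50 under TMM). With no minimum fold change, D. mel WT general subunits called numbered 7 (pSC against SG) and 6 (eST against rST) and its paralogs 1 (pSC against SG), D. mel KO general subunits 2 (eST against rST), and members 8, 6 and 11 in C, B and C-B in testes and 4, 3 and 5 at rST. With DESeq2, general subunits numbered 5 and 2 in D. mel WT (rST against pSC, eST against rST), 4 in D. mel KO (eST against rST) and 5 in replacement (rST against pSC, with 2 paralogs), and members 1 (B at SG), 1 (C at pSC), 0 (C at rST), 3 (C at eST), 6 (C-B at eST), and, for D. mel WT less replacement, 1 (pSC against SG) and 5 (eST against rST). DESeq2's size factors gave 2 (D. mel WT eST against rST) and 4 (replacement rST against pSC) general subunits, 0 members in C at rST and 1 for D. mel WT less replacement (eST against rST). Fitting only the groups compared gave general subunits 0 (D. mel WT) and 2 (D. mel KO) in eST against rST and 4 and 8 in replacement (pSC against SG, eST against rST), paralogs 2 (D. mel KO rST against pSC) and 1, 2 and 7 in the replacement steps, members 0 (C) and 4 (C-B) at eST, and 0 for both line differences of eST against rST. All 3 lines in 1 fit gave paralogs 0 (D. mel WT) and 2 (replacement) in rST against pSC. A filter of 50 gave 2 D. mel KO general subunits (eST against rST), and no filter 1 member in C-B at eST. By read counts the paralog share in testes was 71.5% in D. mel WT, 71.1% in replacement and 70.5% in D. mel KO.

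Of same-numbered pairs of libraries, 1 of 9 correlated above 0.1 in testes, 6 of 11 in SG, 7 of 15 in pSC, 7 of 15 in rST and 8 of 15 in eST cysts. In cysts r ran from -0.77 to 0.84. Differently numbered pairs were not compared, so this check cannot tell whether equal numbers pair the samples. With the replicate block, general subunits numbered 7 (D. mel WT pSC against SG), 4 (D. mel KO eST against rST), 12 and 5 (replacement pSC against SG, rST against pSC), paralogs 6 (D. mel KO pSC against SG) and 0 (replacement eST against rST), and members 0 in C and C-B at eST.

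With 1 cyst left out at a time, general subunits called ranged from 4 to 11 (D. mel KO) in pSC against SG, 1 to 7 (D. mel WT), 5 to 9 (replacement) and 0 to 6 (D. mel KO) in rST against pSC, and 1 to 2, 2 to 7 and 0 to 7 in eST against rST. Paralogs ranged from 4 to 13 (replacement) in pSC against SG, 1 to 5, 1 to 3 and 1 to 2 in rST against pSC, and 0 to 4 (replacement) and 1 to 3 (D. mel KO) in eST against rST. Members between lines ranged from 0 to 1 at pSC in C, B and C-B, 0 to 3 (C) and 0 to 1 (C-B) at rST, and 0 to 3 (C) and 0 to 6 (C-B) at eST. Differences between steps ranged from 0 to 3 (D. mel WT less D. mel KO) and 0 to 4 (D. mel WT less replacement) in eST against rST and 0 to 1 (D. mel WT less replacement) in pSC against SG.

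The causes of these moves were not tested. The limits are the 3 to 6 libraries per group, the spread between cysts of a stage, amplified cDNA, overlapping genes counted without strand, and Prosalpha1 and Prosalpha1R, which could not be told apart.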
